A study of Saccharomyces cerevisiae with 14 samples.

Results

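The replicative DNA polymerases, primase, the sliding clamp PCNA and the single-strand binding protein RPA were represented by 10 genes, taken by their identifiers from the 6612 transcripts listed in each deposited table. *POL1*, *POL12*, *PRI1* and *PRI2* encode the catalytic subunit, the B subunit and both primase subunits of polymerase α-primase. *POL2* and *DPB2* encode the catalytic and the second subunit of polymerase ε, and *POL3* the catalytic subunit of polymerase δ. *POL30* encodes PCNA, and *RFA1* and *RFA2* the large and the middle subunit of RPA. All 10 transcripts passed the filter on low counts in every comparison. None of their 31-mers occurred in another coding sequence of the RefSeq annotation, which lacks an open reading frame over *POL30* that the tables list (YBR089W).

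At a replication fork, polymerase α-primase lays down short RNA-DNA primers, polymerase ε extends the leading strand and polymerase δ the lagging strand. PCNA is the ring that holds polymerases on DNA, and RPA covers single-stranded DNA as the helicase exposes it. In budding yeast, many genes of this machinery are transcribed periodically, with a peak at the transition from G1 to S. The transcription factor MBF drives this wave through the Mlu I cell cycle box (MCB), while the related factor SBF binds the Swi4 cell cycle box (SCB).

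The transcripts were measured in MATa *Saccharomyces cerevisiae* of 1 *ARP8* and 1 *arp8-AA* strain. Arp8 is a subunit of the INO80 chromatin remodeller, and *arp8-AA* carries the substitutions S65A and S233A at both serines that depend on the replication kinase DDK for phosphorylation. Both strains are listed with deletions at *HIS3*, *LEU2* and *URA3*, and the *ARP8* strain alone with one at *MET15*. In every library of both genotypes *MET17*, the present name of *MET15*, had 0 counts, which goes against the genotype listed for *arp8-AA*. Asynchronous cultures grew in rich medium, with 3 biological replicates for each genotype. Synchronised cultures were arrested in G1 with α-factor, washed and sampled 10 and 20 min after release into fresh rich medium, with 2 biological replicates for each genotype and time. The study takes 10 min as G1 and 20 min as early S and describes a slower S phase entry in the mutant, so libraries set side by side share a time but may differ in stage. In such bulk RNA, fewer cells of a stage and less RNA per cell cannot be told apart.

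Ribosomal RNA was depleted before sequencing, and libraries held 1864995 to 6016858 estimated counts. Levels are given as CPM, counts relative to the library total, on 1 scale for all 14 libraries with totals scaled by TMM factors. The 4 MATa markers were present in all libraries, with *STE2* at 62.6 to 374 CPM, *BAR1* at 83.9 to 739 CPM, *MFA1* at 3.46 to 48.5 CPM and *MFA2* at 2.16 to 31.7 CPM. Of the markers of the opposite mating type, *MF(ALPHA)1* had 0 counts in 13 libraries, *MF(ALPHA)2* had 0 counts in 6 and at most 2.3 CPM, and *STE3* reached 0.97 to 11.5 CPM. *STE3* was called higher in released than in asynchronous cells in all 4 comparisons, by log2 fold changes of 2.18 to 2.81. The *ARP8* transcript lay between 125 and 227 CPM in all libraries. The replicates of the synchronised experiment stood apart from each other. At 10 min, 5 pheromone response genes summed to 1741 and 1797 CPM in replicate 1 of the genotypes but to 303 and 304 CPM in replicate 2. Asynchronous libraries had 253 to 346 CPM in *ARP8* and 198 to 312 CPM in *arp8-AA*. The 8 core histone genes are transcribed in S phase. At 10 min they summed to 832 and 1087 CPM in replicate 1 and to 3298 and 5543 CPM in replicate 2. Their asynchronous sums were 4990 to 5333 CPM in *ARP8* and 4034 to 4299 CPM in *arp8-AA*. Results for the synchronised cultures are therefore also given by replicate.

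Promoter sequences are shown because one feature that was not used to choose the genes was common to nearly all of them. The 250 bases before each coding start were read from the R64 genome and searched on both strands for ACGCGT (MCB), CGCGAAA (an SCB variant) and CACGAAA (SCB). The MCB occurred in 9 of the 10 members, and in 174 of 5897 promoters of the same length (2.95%). The members *POL1*, *POL12*, *RFA1* and *RFA2* held a pair of copies, as 0.356% of all promoters hold 2 or more. The variant CGCGAAA occurred in *DPB2* on the reverse strand and in *POL30* on the forward strand, where it overlapped the MCB by 1 base, and in 3.41% of all promoters. CACGAAA occurred in 0 members and in 3.88% of all promoters. The stretch around the matches is printed 5′ to 3′ along the strand of each gene, with the matched letters in capitals, for the polymerase α-primase genes *POL1* (chrXIV:429867-429931, plus strand), *POL12* (chrII:153792-153844, minus) and *PRI2* (chrXI:353316-353345, plus).
POL1: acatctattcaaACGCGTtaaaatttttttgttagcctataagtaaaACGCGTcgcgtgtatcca
POL12: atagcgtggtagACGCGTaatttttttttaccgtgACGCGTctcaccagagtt
PRI2: tgatttgaaattACGCGTcgcggggaatcg
The next set shows the polymerase ε and δ genes *POL2* (chrXIV:148085-148114, plus), *DPB2* (chrXVI:888828-888868, plus) and *POL3* (chrIV:276694-276723, plus), in which the single MCB lay between 110 and 166 bases before the start.
POL2: agggtaaccagaACGCGTaagtttcttgca
DPB2: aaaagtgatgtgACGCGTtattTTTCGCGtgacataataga
POL3: atttttcgtattACGCGTaactttttattc
The PCNA and RPA genes *POL30* (chrII:425944-425979, minus), *RFA1* (chrI:158737-158796, minus) and *RFA2* (chrXIV:48155-48196, plus) complete the members with a match.
POL30: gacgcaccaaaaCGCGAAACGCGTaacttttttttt
RFA1: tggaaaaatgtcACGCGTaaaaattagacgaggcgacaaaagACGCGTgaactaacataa
RFA2: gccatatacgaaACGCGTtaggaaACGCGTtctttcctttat
*PRI1* held none of the 3 motifs in this window (chrIX:374307-374556, minus), which is printed whole for comparison.
PRI1: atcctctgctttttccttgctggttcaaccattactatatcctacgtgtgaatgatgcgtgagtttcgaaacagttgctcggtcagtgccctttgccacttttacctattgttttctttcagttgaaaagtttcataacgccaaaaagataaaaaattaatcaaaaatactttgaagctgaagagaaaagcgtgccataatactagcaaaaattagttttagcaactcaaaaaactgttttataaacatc
A match describes letters and does not show binding, and the lack of one says only that these letters are not in the window.

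**Figure D1:**
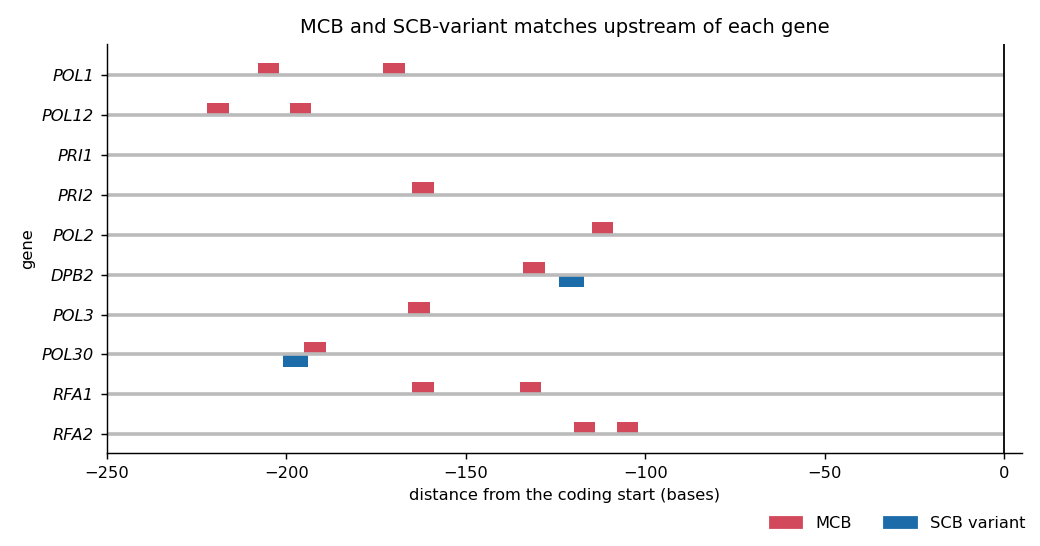
Positions of MCB and SCB-variant matches in the 250 bases before the coding start of each gene, with distance from the start in bases on the x axis. Of the 10 genes, 9 carry an MCB, 4 of them a pair of copies, and *PRI1* carries no match.

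Levels were compared between genes only as TPM, which accounts for transcript length. Median TPM over the 14 libraries ran from 229 for *RFA2* and 113 for *POL30* through 53.8 for *RFA1*, 50.7 for *POL3*, 42.4 for *POL2*, 37.8 for *DPB2*, 33.3 for *POL1*, 27.2 for *PRI2* and 21.4 for *PRI1* down to 7.66 for *POL12*. *RFA2* ranked first, *POL30* in rank 2 and *POL12* last in each of the 14 libraries, although their ranges over libraries overlapped those of their neighbours, for example 99.0 to 346 TPM for *RFA2* and 36.9 to 334 TPM for *POL30*. The order of *RFA1*, *POL3*, *POL2*, *DPB2*, *POL1*, *PRI2* and *PRI1* changed between libraries. Subunits of 1 complex thus differed in transcript level, with *RFA2* at 2.73 to 4.71 times the TPM of *RFA1* and *POL12* at 0.158 to 0.418 times that of *POL1*.

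The first comparison sets the level after release beside that in cycling cultures. Of the 10 genes, 9 were higher 10 min after release than in asynchronous cells of the same genotype, in *ARP8* and in *arp8-AA*, with *PRI1* the exception. The largest estimates were those of *PRI2* and *POL30* in *ARP8* and of *POL30* and *POL12* in *arp8-AA*. Synchronised and asynchronous cultures were separate experiments, so synchrony and experiment cannot be told apart. Both time points of a genotype were set against the same 3 asynchronous libraries. Together the 10 genes took 0.106% to 0.125% of all counts in asynchronous libraries, 0.212% to 0.314% at 10 min and 0.160% to 0.273% at 20 min.

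**Figure D2:**
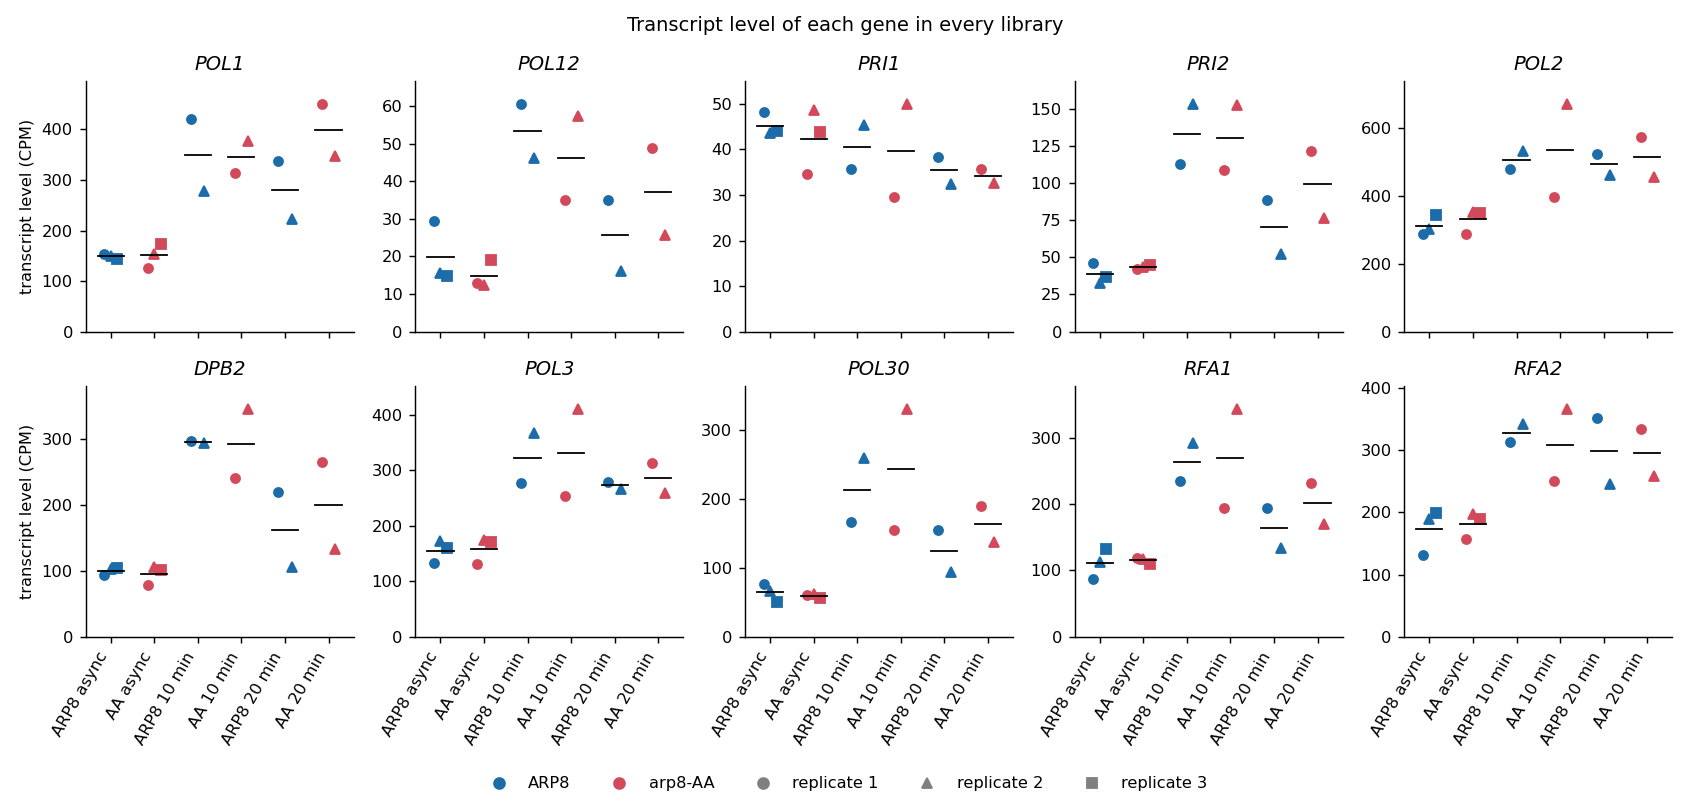
CPM of each gene (y axis, from 0) in every library, by group (x axis; AA stands for *arp8-AA*, async for asynchronous); colour gives the genotype, symbol the replicate and the bar the group mean. In both genotypes the 10 min libraries of all genes but *PRI1* lie above the asynchronous ones.

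Within polymerase α-primase, *POL1* (YNL102W_mRNA, R64 chromosome XIV from 430087 to 434493, a single coding exon) had 154, 149 and 143 CPM in asynchronous *ARP8* libraries and 126, 153 and 174 CPM in asynchronous *arp8-AA* libraries, in the order of replicates 1 to 3. At 10 min, replicates 1 and 2 reached 420.2 and 278 CPM in *ARP8* and 313 and 376 CPM in *arp8-AA*. At 20 min they reached 338 and 222 CPM in *ARP8* and 450.5 and 347 CPM in *arp8-AA*. All 8 released libraries lay above all 6 asynchronous ones. The log2 fold change against asynchronous cells was 1.23 (standard error 0.22, adjusted p = 0.0042 from edgeR's quasi-likelihood F-test) in *ARP8* and 1.19 (standard error 0.22, adjusted p = 0.00508) in *arp8-AA* at 10 min. At 20 min it was 0.92 (standard error 0.22, adjusted p = 0.0229) and 1.40 (standard error 0.22, adjusted p = 0.00286).

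The primase subunits, which make the RNA part of the primer, differed from each other. *PRI2* (YKL045W_mRNA, chromosome XI from 353493 to 355079), the large subunit with an iron-sulfur cluster, had 45.9, 32.97 and 37.1 CPM in asynchronous *ARP8* and 41.8, 43.4 and 44.8 CPM in asynchronous *arp8-AA* libraries. Its level at 10 min was 113 and 153 CPM in *ARP8* and 109 and 152 CPM in *arp8-AA*, and at 20 min 88.2 and 52.2 CPM in *ARP8* and 121 and 76.7 CPM in *arp8-AA*. In both genotypes the released libraries lay above all asynchronous ones. *PRI2* rose by a log2 fold change of 1.78 (standard error 0.27, adjusted p = 0.00152, edgeR) in *ARP8* and 1.59 (standard error 0.26, adjusted p = 0.00265) in *arp8-AA* at 10 min. At 20 min the values were 0.87 (adjusted p = 0.0546) and 1.19 (adjusted p = 0.0144).

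*PRI1* (YIR008C_mRNA, chromosome IX from 373077 to 374306), the catalytic primase subunit, had 48.1, 43.6 and 44.0 CPM in asynchronous *ARP8* and 34.6, 48.6 and 43.9 CPM in asynchronous *arp8-AA* libraries. It had 35.7 and 45.3 CPM in *ARP8* and 29.5 and 50.01 CPM in *arp8-AA* at 10 min, and 38.4 and 32.4 CPM in *ARP8* and 35.7 and 32.7 CPM in *arp8-AA* at 20 min. The groups overlapped in each comparison but that of *ARP8* at 20 min, where both libraries lay below the asynchronous ones, as those of 24.7% of all transcripts did. The log2 fold changes were −0.16 (95% interval −0.67 to 0.36) and −0.07 (−0.57 to 0.44) at 10 min and −0.35 (−0.86 to 0.16) and −0.30 (−0.82 to 0.21) at 20 min, in *ARP8* and *arp8-AA*, with edgeR's adjusted p from 0.346 to 0.879. In TPM, *PRI1* stood at 1.11 to 1.77 times *PRI2* in the 6 asynchronous libraries and at 0.362 to 0.827 times *PRI2* in the 8 released ones.

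*POL12* (YBL035C_mRNA, chromosome II from 151493 to 153610), the non-catalytic B subunit of polymerase α, was the lowest of the genes in TPM. Its asynchronous libraries had 29.5, 15.5 and 14.8 CPM in *ARP8* and 12.9, 12.4 and 18.9 CPM in *arp8-AA*, against 60.6 and 46.3 CPM and 35.0 and 57.4 CPM at 10 min. At 20 min the *ARP8* libraries, with 35.0 and 16.2 CPM, overlapped the asynchronous ones, and the *arp8-AA* libraries, with 48.8 and 25.8 CPM, did not. *POL12* was called higher at 10 min, by a log2 fold change of 1.42 (standard error 0.41, adjusted p = 0.034, edgeR) in *ARP8* and 1.66 (standard error 0.41, adjusted p = 0.018) in *arp8-AA*. At 20 min the values were 0.39 (95% interval −0.51 to 1.29, adjusted p = 0.566) and 1.33 (0.44 to 2.23, adjusted p = 0.0547).

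For polymerase ε, the estimates of the subunits differed at 10 min, though no test compared them. *DPB2* (YPR175W_mRNA, chromosome XVI from 888974 to 891043), an essential subunit that ties the polymerase to the helicase, had 92.9, 103 and 105 CPM in asynchronous *ARP8* and 78.3, 106 and 101 CPM in asynchronous *arp8-AA* libraries. At 10 min it had 297 and 294 CPM in *ARP8* and 239.9 and 346 CPM in *arp8-AA*, and at 20 min 219 and 106 CPM in *ARP8* and 264 and 134 CPM in *arp8-AA*. The 20 min libraries of replicate 2 thus lay near the asynchronous range and those of replicate 1 well above it. The rise at 10 min was 1.56 (standard error 0.31, adjusted p = 0.00687, edgeR) on the log2 scale in *ARP8* and 1.63 (standard error 0.31, adjusted p = 0.00549) in *arp8-AA*, and the values at 20 min were 0.70 (adjusted p = 0.154) and 1.07 (adjusted p = 0.0438).

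*POL2* (YNL262W_mRNA, chromosome XIV from 148212 to 154880), the catalytic subunit, had the smallest rise of the 9 genes at 10 min in both genotypes. It went from 287 to 345 CPM over asynchronous *ARP8* and 289 to 353 CPM over asynchronous *arp8-AA* libraries to 480 and 532 CPM and to 397 and 672 CPM at 10 min, a log2 fold change of 0.70 (standard error 0.20, adjusted p = 0.0367, edgeR) and 0.69 (standard error 0.20, adjusted p = 0.0393). The released and asynchronous libraries of each genotype did not overlap, also at 20 min, where *POL2* had 524 and 462 CPM in *ARP8* and 574 and 455 CPM in *arp8-AA*. Its log2 fold changes at 20 min were 0.66 (adjusted p = 0.0531, edgeR) in *ARP8* and 0.64 (adjusted p = 0.0605) in *arp8-AA*. In *ARP8* this was close to the 0.70 of *DPB2*. In TPM, *DPB2* was 0.928 to 1.17 times *POL2* in asynchronous libraries, 1.75 to 2.10 times at 10 min and 0.780 to 1.57 times at 20 min.

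*POL30* (YBR088C_mRNA, chromosome II from 424990 to 425766) encodes PCNA. It had 77.1, 66.4 and 50.4 CPM in asynchronous *ARP8* and 60.1, 61.5 and 55.5 CPM in asynchronous *arp8-AA* libraries. At 10 min it reached 166 and 259 CPM in *ARP8* and 155 and 330.5 CPM in *arp8-AA*, and at 20 min 156 and 94.3 CPM in *ARP8* and 190.2 and 138 CPM in *arp8-AA*. All released libraries lay above all asynchronous ones. Its rise of 2.04 (standard error 0.32, adjusted p = 0.00219, edgeR) in *arp8-AA* at 10 min was the largest estimate among the members in any comparison, and that in *ARP8* was 1.72 (standard error 0.32, adjusted p = 0.00485). At 20 min the values were 0.96 (adjusted p = 0.0719) in *ARP8* and 1.47 (adjusted p = 0.0133) in *arp8-AA*. An open reading frame on the opposite strand, YBR089W, covers 584 bases of *POL30* and had at most 4 counts per library, and the counting did not use strand.

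*POL3* (YDL102W_mRNA, chromosome IV from 276872 to 280165), whose product synthesises the lagging strand, had 132 to 172 CPM in asynchronous *ARP8* and 130.4 to 175 CPM in asynchronous *arp8-AA* libraries. It reached 277 and 366 CPM in *ARP8* and 253 and 410.3 CPM in *arp8-AA* at 10 min, and 279 and 267 CPM and 312 and 258 CPM at 20 min. *POL3* was called in all 4 comparisons with asynchronous cells, as *POL1* was. Its log2 fold changes were 1.06 (standard error 0.22) and 1.07 (standard error 0.22) at 10 min and 0.82 (standard error 0.22) and 0.85 (standard error 0.22) at 20 min in *ARP8* and *arp8-AA*, with edgeR's adjusted p from 0.00719 to 0.0312.

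Both RPA members rose at 10 min. *RFA1* (YAR007C_mRNA, chromosome I from 156754 to 158619) went from 87.5 to 132 CPM in asynchronous *ARP8* and 110.2 to 119 CPM in asynchronous *arp8-AA* libraries to 234 and 292 CPM and to 194 and 344 CPM. *RFA2* (YNL312W_mRNA, chromosome XIV from 48287 to 49216, with coding exons at 48287 to 48293 and 48402 to 49216) went from 131 to 199 CPM and 157 to 197 CPM to 314 and 342 CPM and to 250.1 and 367 CPM. Neither gene overlapped between groups. The log2 fold changes were 1.25 (standard error 0.26, adjusted p = 0.00778, edgeR) and 1.22 (standard error 0.25, adjusted p = 0.00813) for *RFA1* and 0.92 (standard error 0.23, adjusted p = 0.0195) and 0.77 (standard error 0.23, adjusted p = 0.0412) for *RFA2*, in *ARP8* and *arp8-AA*. At 20 min, *RFA1* had 195 and 134 CPM in *ARP8* and 232 and 171 CPM in *arp8-AA*, and *RFA2* 352 and 245 CPM and 333 and 258 CPM.

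**Figure D3:**
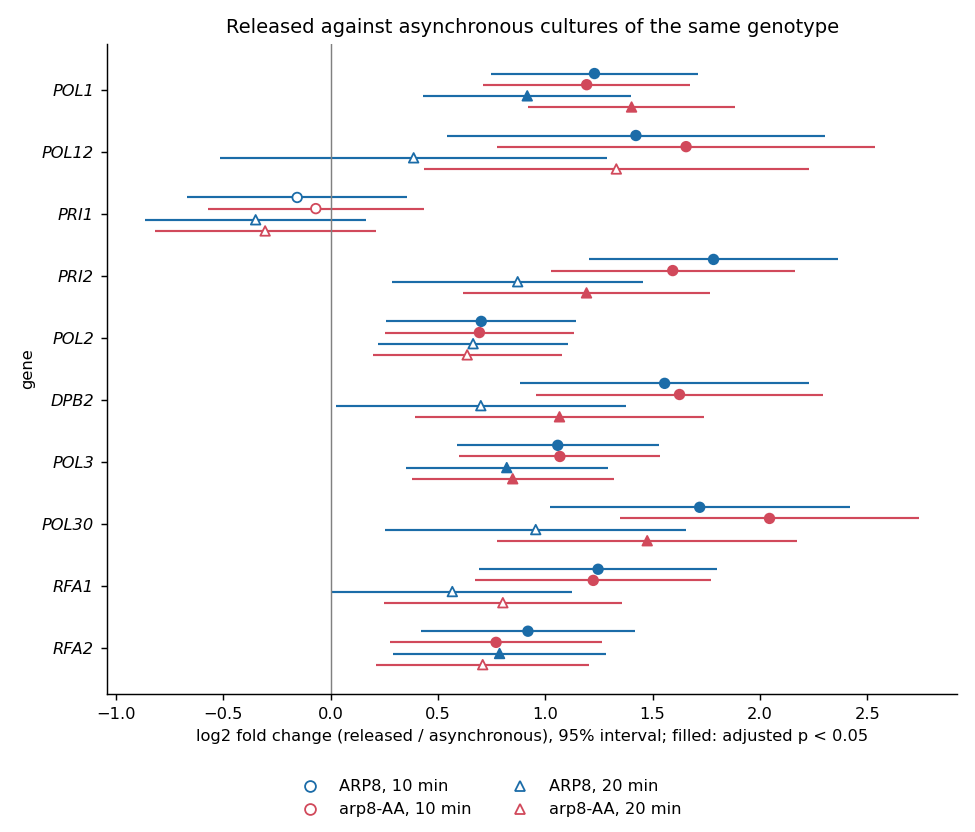
Log2 fold change of each gene (x axis) in released against asynchronous cultures of the same genotype, with 95% intervals from edgeR's fit of all 14 libraries; filled symbols have an adjusted p under 0.05. At 10 min 9 of 10 genes are called higher in each genotype, and all 4 intervals of *PRI1* span 0.

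At 10 min, 9 of 10 members were called higher in *ARP8*, where 8.48% of the 5493 transcripts tested were called higher and 7.01% lower, and 0 members were called lower. In *arp8-AA*, 9 were called higher and 0 lower, beside 7.54% and 6.08% of all transcripts. The same 9 members had non-overlapping groups with higher released libraries, as did 23.8% of all transcripts in *ARP8* and 23.3% in *arp8-AA*. The median log2 fold change of the members was 1.24 in *ARP8* and 1.21 in *arp8-AA*, against −0.01 for all transcripts in both. With replicate 1 of the synchronised cultures alone, a fit added after the data had been seen in which the lone released library is assumed to vary like the others, 9 members were called in *ARP8* and 7 in *arp8-AA*, and with replicate 2 alone 9 in each. Leaving out 10 min replicate 2 of *ARP8* or of *arp8-AA* from the fit of all libraries left 4 members called in that genotype.

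At 20 min fewer members passed the test. In *ARP8*, *POL1*, *POL3* and *RFA2* were called higher, 3 of 10 beside 5.93% of all transcripts, and 0 lower beside 5.5%. In *arp8-AA*, *POL1*, *PRI2*, *DPB2*, *POL3* and *POL30* were called higher, 5 of 10 beside 5.63%, and 0 lower beside 6.41%. The released libraries lay above all asynchronous ones for 8 members in *ARP8* and 9 in *arp8-AA*, as for 25.3% and 24% of all transcripts. In *ARP8* the margin was narrow for *DPB2*, at 105.8 against 104.9 CPM, and for *RFA1*, at 133.6 against 132 CPM. Their log2 fold changes there were 0.70 (adjusted p = 0.154, edgeR) and 0.57 (adjusted p = 0.161). Many values lay near the threshold, with adjusted p between 0.0531 and 0.0719 for *POL2*, *PRI2* and *POL30* in *ARP8* and between 0.0547 and 0.0632 for *POL12*, *RFA1*, *POL2* and *RFA2* in *arp8-AA*, from edgeR. The count in *ARP8* was 0 without any one of its 3 asynchronous libraries or without its 20 min replicate 1. It was 6 without either *arp8-AA* 10 min library and 5 without *arp8-AA* 20 min replicate 1. These libraries are in the fit but not in the comparison itself, and what moved the count was not tested. In *arp8-AA* the count was 1 without its 20 min replicate 1, 2 without its asynchronous replicate 1 and 3 without its asynchronous replicate 3. It was 8 without *ARP8* asynchronous replicate 1 or *ARP8* 20 min replicate 2, and 9 without *arp8-AA* 10 min replicate 1 or 2. Synchronised replicate 1 alone gave 8 called members in *ARP8* and 9 in *arp8-AA*, and replicate 2 alone 3 and 4. Whether the rise differed between genotypes was not tested in this fit.

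Genes around the 10 members were read from lists of named genes. Of the 5 remaining subunits of polymerases δ and ε and of RPA (*POL31*, *POL32*, *DPB3*, *DPB4* and *RFA3*), 0 were called by edgeR in any of the 4 comparisons with asynchronous cells, and 1, 2, 1 and 1 had an unadjusted p under 0.05 in *ARP8* and *arp8-AA* at 10 min and at 20 min, as had 32.3%, 29.3%, 29.8% and 29.1% of all transcripts. Their median log2 fold change was 0.33 and 0.04 at 10 min and 0.05 and −0.03 at 20 min.

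The products of the 9 clamp loader genes open and close PCNA. Of these genes, 3 were called higher in each genotype at 10 min and 2 at 20 min. The largest estimate was that of *ELG1*, of the complex that unloads PCNA, at 1.23 (standard error 0.34, adjusted p = 0.0303, edgeR) in *ARP8* and 1.48 (standard error 0.33, adjusted p = 0.0123) in *arp8-AA* at 10 min. *CTF18*, of the loader used in cohesion and checkpoint signalling, was called in all 4 comparisons, with values from 0.87 to 1.33. Of 9 genes for Okazaki fragment maturation and fork proteins, 4 were called higher in each genotype at 10 min. At 20 min 1 was called higher in *ARP8* and 2 in *arp8-AA*. The lowest of the 9 estimates at 10 min was 0.10 in *ARP8* and 0.36 in *arp8-AA*. The flap endonuclease gene *RAD27* led in *ARP8* at 10 min, with 1.39 (standard error 0.31, adjusted p = 0.0111), and *RNH202*, for a subunit of ribonuclease H2, led in *arp8-AA*, with 1.39 (standard error 0.38, adjusted p = 0.0302). Of 6 other DNA polymerase genes, 2 were called higher in *ARP8* and 1 in *arp8-AA* at 10 min, and 0 at 20 min. *REV3*, of the translesion polymerase ζ, was at 0.77 (standard error 0.21) and 0.74 (standard error 0.21) at 10 min. None of the genes in these 4 lists was called lower. Of all transcripts, 8.48% in *ARP8* and 7.54% in *arp8-AA* were called higher at 10 min, and 5.93% and 5.63% at 20 min.

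Among transcripts other than the members, 153 of those tested held an MCB in the same window. Of these, 61 (39.9%) were called higher in *ARP8* and 58 (37.9%) in *arp8-AA* at 10 min, and 26 (17%) and 36 (23.5%) at 20 min. Of the 9 members with an MCB, 9 were called higher at 10 min in each genotype. At 20 min 3 were called in *ARP8* and 5 in *arp8-AA*. *PRI1*, the only member without one, was called in 0 of 4 comparisons. No test compared promoters with and without the motif.

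Across the 14 libraries, the 9 genes other than *PRI1* followed a common course. The correlation of log2 CPM of each gene with the mean of the other 9 was 0.872 to 0.960 for these genes and −0.15 for *PRI1*, as a description over 14 libraries that share the contrast of both experiments. Within the 8 synchronised libraries it was 0.81 for *PRI1*, 0.493 for *POL1* and 0.772 to 0.970 for the others. The course was not particular to the members. Set against the mean of all 10 members, 10 (for *DPB2*) to 100 (for *POL12*) other transcripts were more alike than each of the 9 genes. The same mean of all 10 is used for the transcripts named next. The 5 other transcripts most like the members' mean were those of *CDC9* (r = 0.984, DNA ligase), *RSR1* (0.984, a Ras-like GTPase of bud site selection), *TOS4* (0.983, a forkhead-associated domain protein), *GIN4* (0.981, a septin-associated kinase) and *IRR1* (0.978, a cohesin subunit). Of these, *CDC9* and *IRR1* held an MCB in the 250 bases before their start.

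The next comparison asked whether levels moved between 10 and 20 min. Of the 10 members, 0 were called within *ARP8* (0.11% of 5453 transcripts called), 0 within *arp8-AA* (0.0183%) and 0 over both genotypes (1.54%). At an unadjusted p under 0.05 there were 4 members in *ARP8*, 0 in *arp8-AA* and 5 over both genotypes, beside 10.1%, 9.98% and 15.9% of all transcripts. All 10 estimates over both genotypes were below 0, with a median of −0.37 against −0.002 for all transcripts, although *POL1*, *PRI1*, *POL2* or *RFA2* turned to between 0.00 and 0.18 when leaving out one of the libraries *ARP8* 10 min replicate 1, *ARP8* 20 min replicate 2 and *arp8-AA* 10 min and 20 min replicate 2. *DPB2* had the lowest adjusted p, at a log2 fold change of −0.78 (standard error 0.23, adjusted p = 0.131, edgeR), followed by *PRI2* at −0.68 (standard error 0.21, adjusted p = 0.151) and *POL12* at −0.75 (standard error 0.25, adjusted p = 0.185). Without *arp8-AA* 10 min replicate 1, 3 members were called over both genotypes, beside 1.82% of all transcripts, and with the 4 *ARP8* libraries fitted alone 3 were called in *ARP8*, beside 1.78%.

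The replicates went different ways in this comparison. In replicate 2, all 10 members were lower at 20 min than at 10 min in both genotypes, with median log2 ratios of −0.80 in *ARP8* and −0.83 in *arp8-AA*. In replicate 1, 6 of 10 were lower in *ARP8* (median −0.18) and all 10 were higher in *arp8-AA* (median 0.30). *PRI2* fell from 153 to 52.2 CPM and from 152 to 76.7 CPM in replicate 2 of *ARP8* and *arp8-AA*, while in replicate 1 its level went from 113 to 88.2 CPM and from 109 to 121 CPM. Marker genes for the stage also differed. The median of 10 G1/S genes changed by −0.11 and −1.25 in *ARP8* and by 0.67 and −0.70 in *arp8-AA*, for replicates 1 and 2. The 8 core histone genes rose in all 4 cultures, by medians of 2.05, 0.60, 1.73 and 1.53 in the same order, and 7 of 8 were called higher over both genotypes. The median of 6 G2/M genes changed by 0.79, 2.15, −0.51 and 1.90. The part of stage in the members' values was not tested.

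**Figure D4:**
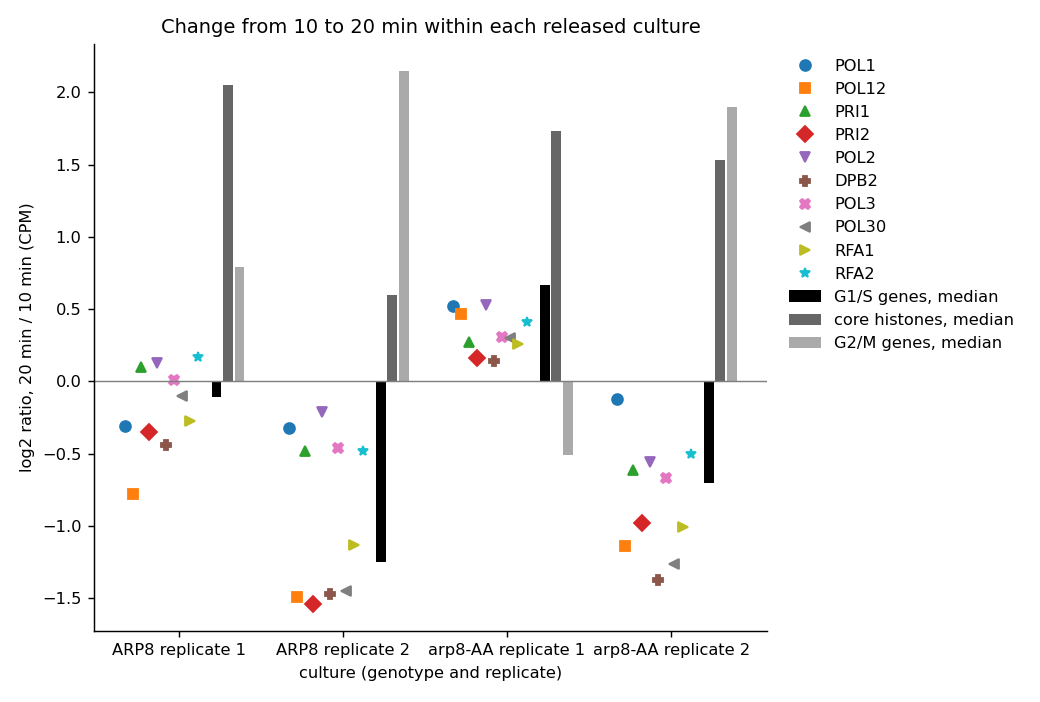
Log2 ratio of CPM at 20 min over 10 min (y axis) within each released culture (x axis, taken as libraries of the same genotype and replicate number), with a point for each of the 10 genes and bars for the median of G1/S, core histone and G2/M marker genes. In replicate 2 all 10 genes lie below 0 in both genotypes, and in *arp8-AA* replicate 1 all 10 lie above 0.

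Between genotypes, none of the 10 genes was called in asynchronous cells, at 10 min, at 20 min, over both times or in the interaction, with edgeR, DESeq2 or limma. In asynchronous cells 0 members were called between *arp8-AA* and *ARP8*, beside 0.942% of 5204 transcripts, and 0 had an unadjusted p under 0.05, beside 15.9% of them. Log2 fold changes ran from −0.42 for *POL12* (standard error 0.30, 95% interval −1.09 to 0.25, adjusted p = 0.552, edgeR) to 0.17 for *PRI2* (standard error 0.16, −0.19 to 0.53, adjusted p = 0.675), with a median of 0.02 against −0.003 for all transcripts. The value of *POL12* was 0.06 without replicate 1 of either genotype. For *POL2*, *POL3* and *RFA2* the 95% intervals stayed within −0.18 to 0.30. In the same libraries 3 of 8 core histone genes were called lower in *arp8-AA*.

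At 10 min, 0 members were called, beside 0% of 5453 transcripts, 154 of which had an unadjusted p under 0.05. With DESeq2, 5 transcripts and 0 members were called. Log2 fold changes of the members ran from −0.11 for *POL12* (95% interval −0.88 to 0.65) to 0.18 for *POL30* (−0.60 to 0.96). The replicates differed in sign. In replicate 1, 0 of 10 members were higher in *arp8-AA* (median −0.27), and in replicate 2, 9 of 10 were higher (median 0.23). For *POL1* this was 313 against 420.2 CPM in replicate 1 and 376 against 278 CPM in replicate 2, in *arp8-AA* and *ARP8*.

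At 20 min, 0 members were called, beside 0.0183% of all transcripts. Estimates were above 0 for 9 of 10 members, with a median of 0.30 against 0.02 for all transcripts, and 8 of 10 members were higher in *arp8-AA* in each replicate. Leaving out *arp8-AA* 20 min replicate 1 or *ARP8* 20 min replicate 2 put *POL2*, *DPB2*, *POL3*, *POL30*, *RFA1* and *RFA2* below 0, and the median over the alternatives ran from −0.13 to 0.74. *POL1*, the 1 member with an unadjusted p under 0.05 (7.15% of all transcripts), had 450.5 and 347 CPM in *arp8-AA* against 338 and 222 CPM in *ARP8*. Its log2 fold change was 0.53 (standard error 0.20, 95% interval 0.08 to 0.99, adjusted p = 0.694, edgeR). It was the single member whose groups did not overlap, as was so for 29.5% of all transcripts. *POL12* at 0.53 (standard error 0.36), *PRI2* at 0.50 (standard error 0.30) and *POL30* at 0.39 (standard error 0.36) had like estimates, with adjusted p from 0.708 to 0.782, while *RFA2* was at 0.00 (95% interval −0.51 to 0.51). In these libraries the median of the G1/S genes was 0.47 and that of the G2/M genes −1.05 between *arp8-AA* and *ARP8*, with 0 called in either list. An unadjusted p under 0.05 (edgeR) was found for 2 of 10 G1/S and 4 of 6 G2/M genes, beside 7.15% of all transcripts.

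Over both time points 0 members were called, beside 0.0917% of all transcripts, with estimates from −0.04 for *RFA2* to 0.29 for *POL30* and the lowest adjusted p at 0.773 for *POL1*. The members' median ran from −0.15 to 0.39 over the alternatives. In the interaction of genotype and time 0 members were called, beside 0% of 5453 transcripts, 110 of which had an unadjusted p under 0.05, and with DESeq2 1 transcript was called. The largest interaction was that of *POL12*, at 0.64 (standard error 0.50, 95% interval −0.46 to 1.75, adjusted p = 0.962, edgeR).

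**Figure D5:**
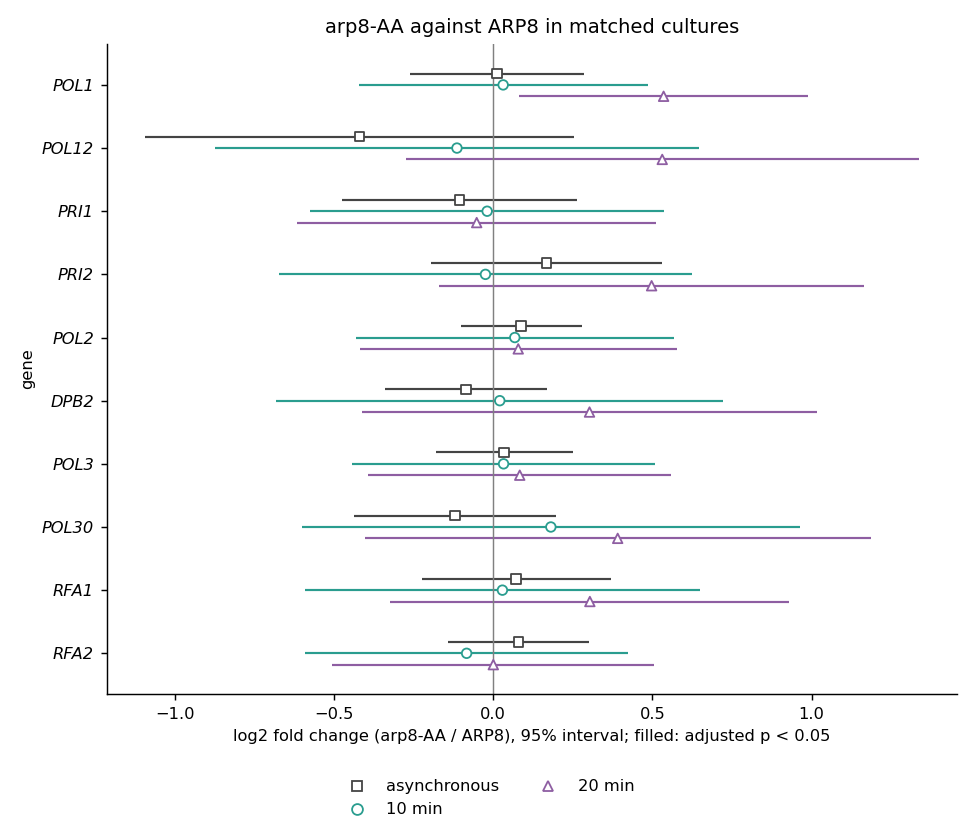
Log2 fold change of each gene between *arp8-AA* and *ARP8* (x axis) in asynchronous cultures and at 10 and 20 min after release, with 95% intervals from edgeR; filled symbols would have an adjusted p under 0.05. None is filled, and the interval of *POL1* at 20 min, 0.08 to 0.99, is the only one that does not span 0.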

How the data were processed

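RNA was extracted (Trizol per the labels, QIAzol per the paper's methods), depleted of ribosomal RNA and sequenced as directional paired-end libraries. The authors pseudoaligned the reads with kallisto 0.48 at default parameters, which use no strand, to transcripts of build R64 (annotation version 108), and deposited estimated counts and TPM for 6612 transcripts per library. No values had been filtered.

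Estimated counts were rounded and tested in R 4.3.3 with edgeR 4.0.16 (filterByExpr, TMM factors, quasi-likelihood F-test, two-sided, Benjamini-Hochberg adjustment over all transcripts tested), with calls at an adjusted p under 0.05. Separate fits, each with the replicate number as a block as the study adjusted for it, took the 6 asynchronous and the 8 synchronised libraries. Released and asynchronous cultures were compared in 1 fit of all 14 libraries without a block. Deviations from group means correlated across genes at 0.136 to 0.269 between same-numbered asynchronous libraries of different genotype. Between differently numbered ones the values were −0.208 to 0.118, so the pairing was weak there. Between same-numbered synchronised libraries they were 0.477 to 0.65. The 10 pairs of replicates within a group differed beyond sampling noise (chi-square per degree of freedom 1.61 for *ARP8* asynchronous replicates 2 and 3, and 3.22 to 37.5 for the other pairs). Alternatives used DESeq2 1.42.0, limma 3.58.1 on log2(TPM + 1), other scalings and filters, and fits without each library. The edgeR fits were checked on simulated data. Plots used Python 3.11.15.

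Promoters were read from the R64 genome of RefSeq, as 5917 transcripts matched a locus tag there, 5908 of them with equal coding length. All 10 members are named with values. In each list of genes around the members, values are given for at most 3 genes. Values are also given for the mating type markers and for the 5 transcripts most like the members. *CTF18* was chosen after its values were seen. Members and lists were chosen with earlier results of these data known. Amino acid sequences were not used here. Intervals cover the spread between these libraries only.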

Additional observations from a re-analysis of the deposited data

Results flagged for a closer look

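*PRI2* had opposite differences between the genotypes at the 2 time points in every replicate, measured as the log2 ratio of CPM in *arp8-AA* over *ARP8*. The ratios were −0.05 and −0.01 at 10 min and 0.46 and 0.55 at 20 min, for replicates 1 and 2, so that the mean at 20 min was higher by 0.54. The ratios at 10 min were close to 0, and the fitted value there, −0.02, was 0.03 with library totals and 0.13 on TPM, so that the opposite sign depends on the scaling. In edgeR's test of the interaction the log2 difference was 0.52 (standard error 0.42, adjusted p = 0.962), which was not called.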

How the results depend on the processing

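Without the replicate block, 0 members were called between genotypes, between time points and in the interaction, as in the paired fits, and 4 in place of 49 of all transcripts between genotypes in asynchronous cells. Under every alternative run, 0 members were called in the 5 tests of genotype and interaction (lowest adjusted p 0.319), and 0 in 20 against 10 min in *arp8-AA*. In *ARP8*, 3 were called between 20 and 10 min with its 4 libraries alone. Over both genotypes, leaving out 1 library gave 0 to 3. Against asynchronous cells, leaving out 1 library gave 4 to 9 called members in *ARP8* and 4 to 9 in *arp8-AA* at 10 min, and 0 to 6 and 1 to 9 at 20 min. At 20 min in *ARP8*, DESeq2 called 6, library totals without TMM factors 6, limma on TPM 8, synchronised replicate 1 alone 8 and the threshold of 0.1 called 6. At 20 min in *arp8-AA*, DESeq2, library totals without TMM factors, limma on TPM, a filter of at least 10 counts in every library, synchronised replicate 1 alone and the threshold of 0.1 each called 9. The cause of these differences was not tested. On log2(TPM + 1) the median of all transcripts in released against asynchronous cells shifted to between 0.30 and 0.38, and *PRI1*, at 0.02 to 0.25 there, lay −0.32 to −0.09 relative to it. For *arp8-AA* against *ARP8* that median was 0.12 in asynchronous cells and 0.15 at 10 min. No called member changed sign. Counts over all transcripts also moved by over 1.5 times under several alternatives, among them the following. Between genotypes in asynchronous cells, 49 became 158 with no filter, 88 without TMM factors, 0 with limma and 12 to 94 leaving out 1 library, and at 10 min 0 became 48 with the 4 libraries alone. Over both times, 5 became 28 with DESeq2. Between 20 and 10 min over both genotypes, 84 became 145 with DESeq2, 0 without the block and 8 to 182 leaving out 1 library, and in *ARP8* 6 became 95 with its libraries alone. Against asynchronous cells, 628 to 851 became 1128 to 1615 with limma, and for *ARP8* at 20 min 628 became 103 without its replicate 1. *POL12* had 24 to 349 counts per library, *PRI2* 68 to 925 and *PRI1* 75 to 304. Against asynchronous cells the standard error of *POL12*, 0.41 to 0.42, was the largest of the members. That of *PRI1* was 0.23 to 0.24, so its estimates were not among the least precise.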
